A study of Sus scrofa with 54 samples.

Results

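TNFRSF1A (ENSSSCG00000000708), IL1R1 (ENSSSCG00000008162) and REL (ENSSSCG00000008388) are 3 of the 25114 pig genes in the deposited count table, and their levels are described here in blood, skeletal muscle and left ventricular biopsies. They were selected on values of these same samples: all 3 stood on the study's inflammatory list and passed its comparison of 4 outlying day 7 micro-EMB samples with 14 micro-EMB samples that resembled conventional biopsies. Changes within micro-EMB are therefore given as a description, and tests are kept to sample types that did not supply those values, apart from 1 micro-EMB sample in the device comparison.

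TNFRSF1A encodes the main signalling receptor for tumour necrosis factor (TNF), and IL1R1 encodes the receptor through which interleukin-1 signals. Both receptors recruit adaptor proteins that activate the IκB kinase complex, which releases NF-κB transcription factors into the nucleus. REL encodes c-Rel, an NF-κB subunit known chiefly from lymphoid and myeloid cells, whereas IL1R1 is known from stromal and endothelial cells as well as from leukocytes.

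The study took endomyocardial biopsies (EMB) from the left ventricle of adult female Yorkshire-Swedish farm pigs with a miniaturized device (micro-EMB) and with a conventional bioptome, and used blood and skeletal muscle as control tissues. The pigs were naive before the first procedure. Baseline samples came from that session, and follow-up samples came from the same hearts on day 7. Several biopsies were taken in each session, so a baseline sample could follow others of that session. Some of the study's pigs had both micro-EMB and conventional EMB, and others had micro-EMB only. By the study's methods, the procedures were done under anaesthesia with sedatives, isoflurane and fentanyl, and the procedure description that they follow includes the antiarrhythmic drug amiodarone. The 54 sequenced samples came from 5 pigs: 20 micro-EMB at baseline, 12 micro-EMB at follow-up, 6 conventional EMB at baseline, 4 conventional EMB at follow-up, 6 blood and 6 skeletal muscle samples. All conventional EMB, blood and muscle samples came from pigs 4491 and 4494, and several samples of 1 pig are not separate animals, so p-values mostly measure the spread between samples of 2 pigs. Pig 4493 had no follow-up sample.

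The libraries held 64216 to 4649613 counted reads, and the median of the 42 heart samples was 1647516. Levels are given as CPM, the counts per 1000000 reads, after TMM scaling, edgeR's normalization to the bulk of genes, over all 54 samples. When clustered on the study's blood genes, 7 samples fell on the branch of the blood samples: conventional EMB samples 3, 38 and 55, micro-EMB samples 4, 19 and 44, and muscle sample 57. Summed leukocyte markers (8 of 14 listed genes had a row) reached 245 to 4167 CPM in the 6 heart samples among them and 4069 to 6049 CPM in blood, against at most 706 CPM in the 33 heart samples that the study analysed. Summed cardiomyocyte markers (7 of 12 listed genes) were at 117 CPM in conventional EMB sample 38, whereas the other 5 conventional EMB samples at baseline had at least 87205 CPM, so that sample lacked the markers of its labelled tissue. Micro-EMB samples 9, 10 and 21 expressed fewer than 3000 genes. The samples that the study analysed, and its sets of 4 and 14, are named here as rebuilt from the counts with limits chosen for this purpose, since the sources used here do not name them. Of the leukocyte markers, CSF3R had no read in any sample.

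IL1R1 was lower in blood than in skeletal muscle and conventional EMB. In the 6 blood samples its level ranged from 0 to 6.68 CPM with a median of 2.95 CPM, and blood samples 14 and 51, both from pig 4494, held no IL1R1 read, which allows up to 1.28 and 0.841 CPM (3 counts, counting error only). Skeletal muscle ranged from 28.1 to 87.2 CPM with a median of 54.1 CPM, and conventional EMB at baseline from 23.8 to 102 CPM with a median of 50.6 CPM. No blood sample overlapped with either tissue, but the share of all genes that separate in this way was not computed. IL1R1 was 19.1-fold higher in conventional EMB than in blood, a log2 difference of 4.26 (SE 0.69, edgeR's quasi-likelihood test, adjusted p = 6.88e-05), and was lower in blood than in muscle by a log2 difference of -4.31 (SE 0.70, adjusted p = 5.66e-05). In bulk samples such as these, fewer cells of a type and less RNA per cell cannot be told apart. At the same threshold, an adjusted p under 0.05, the first comparison called 35.0% of 11240 genes (25.2% higher and 9.85% lower in conventional EMB) and the second called 42.9% (15.5% higher and 27.3% lower in blood). Both IL1R1 differences were found within each pig. Blood lay below muscle by -3.52 in pig 4491 and -5.17 in pig 4494 (adjusted p = 0.00064 and 0.0124). In conventional EMB against blood, the log2 difference was 3.98 in pig 4491 and 4.72 in pig 4494 (adjusted p = 0.000249 and 0.0268).

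Between the solid tissues, IL1R1 did not show a difference that the test could call. Conventional EMB and muscle differed by a log2 value of -0.05 (95% interval -1.28 to 1.17, adjusted p = 0.98). The sign of this value depended on the setting, and the interval spans more than 2-fold in either direction. The comparison called 9.41% of genes, 5.26% higher and 4.15% lower in conventional EMB, and the 3 tissue comparisons share their samples. With library totals in place of TMM, the calls split into 2399 higher and 1796 lower in conventional EMB against blood (2832 and 1107 with TMM), 1038 and 302 against muscle (591 and 467 with TMM), and 3133 and 2269 in blood against muscle (1747 and 3074 with TMM).

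REL had the reverse order. Its level in blood ranged from 62.3 to 190 CPM with a median of 115 CPM. In muscle it ranged from 16.3 to 40.1 CPM with a median of 23.8 CPM, without overlap. Here too, the share of all genes without such overlap was not computed. REL was 4.81-fold higher in blood than in muscle, a log2 difference of 2.27 (SE 0.49, adjusted p = 0.000823), and was higher in both pigs, by 1.97 in pig 4491 and 2.63 in pig 4494 (adjusted p = 0.00696 and 0.0329).

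In conventional EMB at baseline REL depended on 1 sample. The 5 samples 6, 12, 18, 23 and 40 lay between 25.9 and 38.4 CPM, below every blood sample, whereas sample 38 reached 181.96 CPM and lay among the blood samples. This is the sample with 117 CPM of cardiomyocyte markers, and its summed leukocyte markers reached 2429 CPM against at most 598 CPM in the other 5. Over all 6 samples REL differed from blood by a log2 value of -1.10 (SE 0.46, adjusted p = 0.0706), which did not pass the threshold. Without sample 38 the difference was -1.97 (SE 0.32, adjusted p = 2.56e-05), and with every blood-clustering sample left out it was -1.97 (SE 0.30, adjusted p = 1.02e-05). DESeq2 called it over all 6 samples (-1.31, adjusted p = 0.0191), and it was -1.61 within pig 4491 (adjusted p = 0.0185) and -0.73 within pig 4494 (adjusted p = 0.581). Against muscle REL differed by 1.16 (SE 0.48, adjusted p = 0.148), by 1.35 in DESeq2 (adjusted p = 0.0437), and by 0.48 (SE 0.32, adjusted p = 0.363) with the blood-clustering samples left out.

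TNFRSF1A was not called between any of these tissues. Its medians were 73.2 CPM in blood (range 23.5 to 96.5), 48.1 CPM in muscle (26.2 to 83.7) and 85.3 CPM in conventional EMB at baseline (45.3 to 131). The 3 ranges overlapped, and the log2 difference was 0.36 (SE 0.38, adjusted p = 0.498) for conventional EMB against blood, 0.81 (SE 0.38, adjusted p = 0.21) for conventional EMB against muscle and 0.45 (SE 0.38, adjusted p = 0.366) for blood against muscle. The upper ends of the 95% intervals were 1.15, 1.6 and 1.23. With library totals in place of TMM, blood was higher than muscle by 1.13 (adjusted p = 0.0152), and conventional EMB against blood turned to -0.01.

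**Figure D1:**
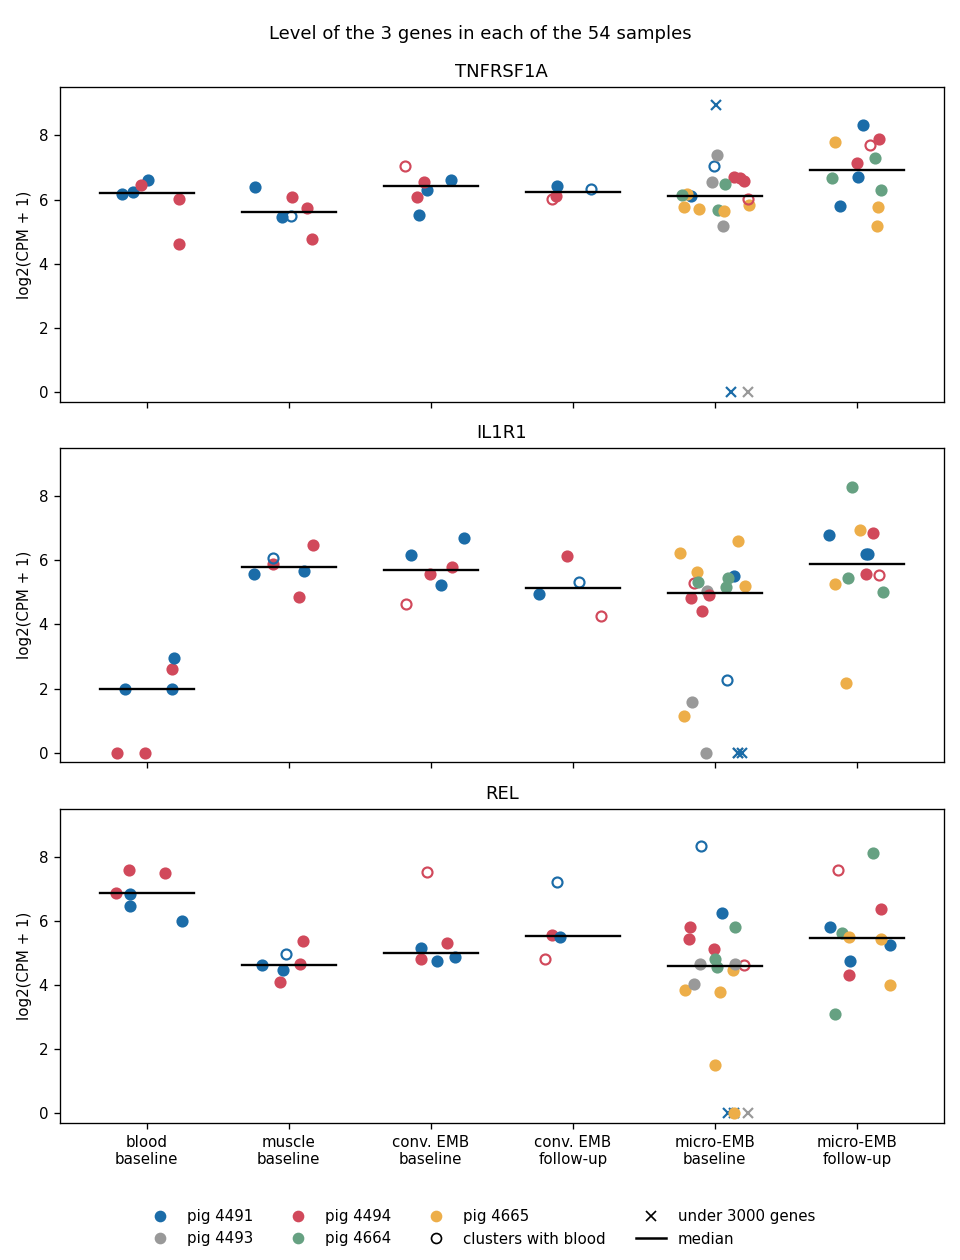
Level of TNFRSF1A, IL1R1 and REL as log2(CPM + 1) in each of the 54 samples, by group, with 1 point per sample colored by pig and a bar at the group median. By group median IL1R1 was lowest (2.95 CPM) and REL highest (115 CPM) in blood, some micro-EMB samples lie within the blood range of IL1R1, and the open circles, samples that cluster with blood, hold the highest REL values of conventional EMB.

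Reads of 2 genes within 1 sample give a ratio in which scaling cancels. Blood held 13.2 to 38.8 REL reads per IL1R1 read in the 4 samples with IL1R1 reads, muscle held 0.278 to 0.684, and 5 conventional EMB samples at baseline held 0.338 to 0.770. Conventional EMB sample 38 held 7.66, between blood and the rest. Among the other heart samples that cluster with blood the ratio was 84.5 in micro-EMB sample 4, 4.25 in micro-EMB sample 44 and 3.8 in conventional EMB sample 55. Conventional EMB sample 3 held 3 REL and 2 IL1R1 reads, and micro-EMB sample 19 held 10 and 16. Micro-EMB samples 33 and 47, which do not cluster with blood, had ratios of 12.2 and 12.0 on 5 and 8 IL1R1 reads.

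The signalling genes around the receptors mostly did not pass the test between heart and blood. Of the TNF receptor list, 14 of 16 genes with a row were tested in conventional EMB against blood, and 1 was higher: BIRC3, an inhibitor of apoptosis recruited to TNF receptors, by 0.89 (SE 0.29, adjusted p = 0.0218). TNFRSF1B, the other TNF receptor, was listed at 0 in both tissues and could not be compared. Of the IL-1 receptor list, 14 genes were tested, of which IL1R1 and IL33, a cytokine of the interleukin-1 family, were higher and SIGIRR, a receptor of the family that restrains its signalling, was lower (-3.17, SE 1.06, adjusted p = 0.0247). IL33 had a median of 15.4 CPM in conventional EMB and was above 0 in 1 of 6 blood samples, at 0.427 CPM. None of the 14 tested NF-κB subunits and regulators, REL among them, passed in this comparison. Over all genes this comparison called 25.2% higher and 9.85% lower. The median log2 differences of the 3 lists were -0.49, -0.14 and 0.34, and that of all tested genes was 0.20.

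Of 12 tested genes known as NF-κB targets, 8 were higher in conventional EMB than in blood and none was lower, beside 25.2% and 9.85% of all genes, with a median log2 difference of 3.56. The 4 with the smallest adjusted p were IER3, an early response gene, VCAM1, an endothelial adhesion molecule, CCL2, a monocyte chemoattractant, and CXCL2, a neutrophil chemoattractant. VCAM1 had at most 1.38 CPM in blood and a median of 130 CPM in conventional EMB (log2 difference 8.34, SE 1.03, adjusted p = 3.45e-06), and CCL2 at most 1.4 and a median of 90.0 CPM (7.81, SE 1.04, adjusted p = 7.98e-06). IER3 had a median of 67.6 CPM against at most 1.22 CPM in blood (7.30, SE 0.85, adjusted p = 1.6e-06). These 3 genes had no read in 3 to 5 of the 6 blood samples, so the size of their differences is uncertain. CXCL2 had no read in any blood sample and a median of 71.9 CPM in conventional EMB.

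In blood against muscle, 6 of 14 tested genes of the IL-1 receptor list were higher in blood and 2, IL1R1 and IL33, were lower, beside 15.5% higher and 27.3% lower over all genes. The higher genes with the smallest adjusted p were SIGIRR (4.63, SE 1.16, adjusted p = 0.00296) and IL18, another cytokine of the family (4.23, SE 1.12, adjusted p = 0.00466). Of the NF-κB list, REL and IKBKB, a kinase subunit that releases NF-κB, were higher in blood and the other 12 were not called. IKBKB was also the only member of that list called between conventional EMB and muscle (2.85, SE 0.50, adjusted p = 0.00086). In the TNF receptor list 3 of 14 were higher in blood, among them CFLAR, which restrains caspase-8 (1.90, SE 0.34, adjusted p = 0.000135). Of the NF-κB targets, 7 of 12 were lower in blood than in muscle, and 1, the protease gene MMP9, was higher. The medians of these lists in blood against muscle were 1.26 for IL-1 receptor genes, 0.19 for NF-κB genes, 0.42 for TNF receptor genes and -2.14 for targets, beside -0.18 for all genes. In conventional EMB against muscle, where 9.41% of all genes were called, 0 of 14 IL-1 receptor genes passed. There, 2 of 14 TNF receptor genes passed, CFLAR higher (1.06, SE 0.33, adjusted p = 0.049) and TAB2, an adaptor of the TAK1 kinase, lower (-1.27, SE 0.29, adjusted p = 0.00792), and 2 of 12 targets were higher, with all-gene and list medians of 0.04, 1.32, 0.59 and 1.63 in that order.

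**Figure D2:**
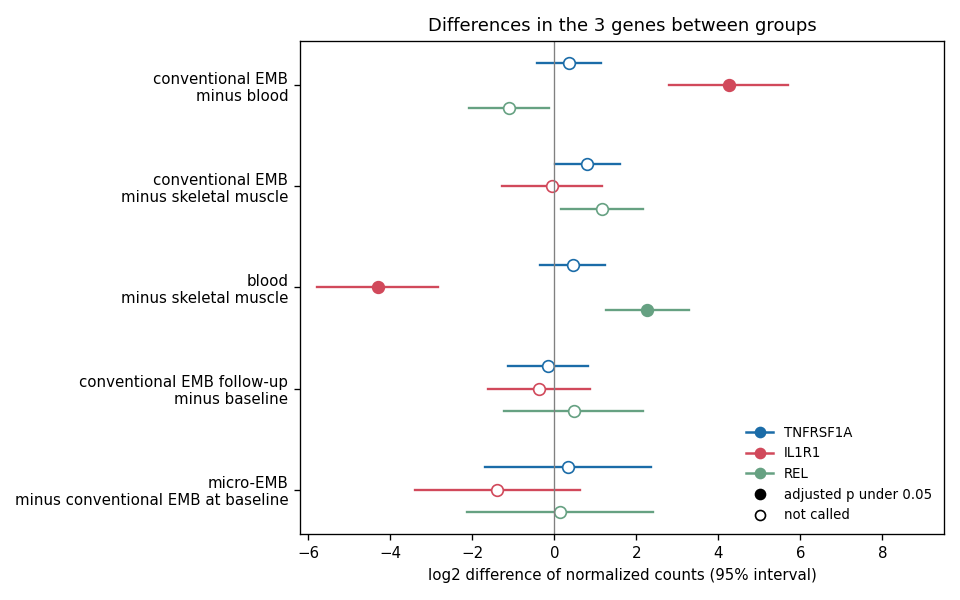
Log2 differences of the 3 genes in the 5 tested comparisons from edgeR, with 95% intervals that are not adjusted for multiple testing, filled where the adjusted p was under 0.05. Only IL1R1 against blood in conventional EMB and in muscle and REL in blood against muscle are filled, and the intervals of the device comparison are the widest.

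Conventional EMB was sampled again on day 7. TNFRSF1A was at 63.7 CPM in sample 3, 67.9 CPM in sample 50, 80.0 CPM in sample 55 and 84.3 CPM in sample 56, all within the baseline range. IL1R1 was at 18.2, 69.7, 38.7 and 29.7 CPM in the same samples, of which sample 3 lay below the baseline range. REL was at 27.3, 46.1, 147 and 44.6 CPM, so sample 55 lay apart from the other 3. Sample 55 clusters with blood, had 1032 CPM of summed leukocyte markers and 516 CPM of summed cardiomyocyte markers, and rested on 318946 counted reads. Sample 3 also clusters with blood and had 74767 counted reads, of which 7 fell on TNFRSF1A, 2 on IL1R1 and 3 on REL.

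None of the 3 genes differed between follow-up and baseline in conventional EMB beyond the spread of the samples. The log2 differences were -0.16 for TNFRSF1A (95% interval -1.14 to 0.82, adjusted p = 0.976), -0.38 for IL1R1 (-1.63 to 0.87, adjusted p = 0.963) and 0.47 for REL (-1.23 to 2.18, adjusted p = 0.964). The edgeR test called 0 of 10885 genes (0%), with 493 at an unadjusted p under 0.05, and DESeq2 called 18. REL took opposite signs in the pigs, 1.5 in pig 4491 (adjusted p = 0.123) and -1.45 in pig 4494 (adjusted p = 1). Sample 55, at follow-up, came from pig 4491, and sample 38, at baseline, came from pig 4494. Without these and sample 3, all of which cluster with blood, REL differed by 0.52 (SE 0.48, adjusted p = 0.806). Of the 4 pathway lists, 13, 13, 14 and 12 genes were tested and 0 were called, with medians of 0.04 (TNF receptor), 0.70 (IL-1 receptor), 0.38 (NF-κB) and 0.67 (targets) beside -0.003 for all genes.

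The device comparison used baseline samples of pigs 4491 and 4494, 8 micro-EMB and 6 conventional EMB. The log2 difference, micro-EMB minus conventional EMB, was 0.33 for TNFRSF1A (95% interval -1.70 to 2.36), -1.39 for IL1R1 (-3.41 to 0.62) and 0.14 for REL (-2.13 to 2.40), each with an adjusted p of 0.999. The edgeR test called 0 of 9717 genes (0%), with 314 at an unadjusted p under 0.05, and DESeq2 called 10. The 8 micro-EMB samples included 10 and 21, with fewer than 3000 genes, and 4 and 19, which cluster with blood. Over the samples the study analysed, the differences were 0.27 (SE 0.36), -0.76 (SE 0.44) and 0.88 (SE 0.43), with adjusted p of 0.734, 0.401 and 0.325 and 49 genes called. Of the TNF receptor, IL-1 receptor, NF-κB and target lists, 14, 9, 13 and 11 genes were tested and 0 were called, with medians of -0.03, -0.63, -0.24 and -0.68 beside -0.47 for all genes. Sample 54, 1 of the 14 that entered the choice of the genes, is among the 8, and without it the differences were 0.38, -1.43 and 0.27.

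Micro-EMB, the type with the most samples, spanned the widest range of all 3 genes. Across the 20 baseline samples TNFRSF1A ranged from 0 to 498 CPM with a median of 69.0 CPM, IL1R1 from 0 to 96.7 CPM with a median of 30.5 CPM, and REL from 0 to 323 CPM with a median of 23.2 CPM. Samples 9 and 10 held no read of any of the 3 genes, which at their depth allows up to 17.1 and 21.3 CPM, so that low levels could not be detected there. Sample 21 held 378 TNFRSF1A reads, the 498 CPM, and no IL1R1 or REL read. Over the 15 baseline samples that the study analysed, the ranges were 35.0 to 167 CPM, 0 to 96.7 CPM and 0 to 75.6 CPM.

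Some micro-EMB samples with at least 1109262 counted reads held very few reads of IL1R1 or REL. IL1R1 had 0 reads in sample 29 among 1132212, 2 reads in sample 24 among 1761363, 5 reads in sample 33 among 2715808 and 8 reads in sample 47 among 2260811. REL had 0 reads in sample 45 among 1109262 and 3 reads in sample 24. Samples 29 and 45, those with 0 reads, lay below the median depth of the heart samples, 1647516, and expressed 6294 and 6111 genes. Samples 24, 33 and 47 expressed 11163, 9846 and 11090 genes. Whether 0 reads reflect the low number of genes detected in samples 29 and 45 was not tested. Samples 29 and 33 came from pig 4493, and samples 24, 45 and 47 came from pig 4665. In the same 5 samples TNFRSF1A had 55 to 422 reads.

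The 12 follow-up micro-EMB samples ranged from 34.8 to 323 CPM for TNFRSF1A (median 123), from 3.52 to 313 CPM for IL1R1 (median 59.2) and from 7.58 to 278 CPM for REL (median 43.2). Their medians lay above those at baseline for all 3 genes, and the ranges overlapped. No test is given, because 4 of these samples chose the genes. By pig, the median of TNFRSF1A at baseline and follow-up was 100 and 104 CPM in pig 4491, 98.1 and 206 CPM in pig 4494, 69.7 and 101 CPM in pig 4664, and 54.1 and 53.9 CPM in pig 4665. The IL1R1 medians were 1.91 and 72.6 CPM, 28.2 and 46.1 CPM, 39.4 and 42.2 CPM, and 49.0 and 37.4 CPM in the same pigs. The REL medians were 37.8 and 37.3 CPM, 38.0 and 81.5 CPM, 27.0 and 47.8 CPM, and 12.9 and 42.3 CPM. For every gene at least 1 pig had a follow-up median below its baseline median, though for TNFRSF1A (pig 4665) and REL (pig 4491) these medians were nearly equal. The baseline medians of pig 4491, such as its low IL1R1 median, rest on 4 samples. Of these, 10 and 21 expressed fewer than 3000 genes and sample 4 clusters with blood. REL ranged from 0 to 323 CPM in them.

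The 4 samples that chose the genes came from 4 pigs. TNFRSF1A was at 323 CPM in sample 8 (pig 4491), 141 CPM in sample 22 (pig 4494), 155 CPM in sample 36 (pig 4664) and 219 CPM in sample 52 (pig 4665). The 14 similar samples lay between 34.8 and 167 CPM, and sample 33 alone among them exceeded samples 22 and 36. Among the analysed micro-EMB samples in neither set, sample 39 had 237 CPM, above samples 22, 36 and 52. IL1R1 was at 108, 114, 313 and 122 CPM in the 4 samples, all above the highest of the 14, which was 96.7 CPM. The analysed samples in neither set had at most 73.7 CPM of IL1R1. REL was at 37.3, 81.5, 278 and 44.1 CPM, and samples 8 and 52 lay within the range of the 14, which was 1.82 to 54.9 CPM. Sample 16, in neither set, had 75.6 CPM of REL, above samples 8 and 52. REL was highest in sample 36, on 619 reads. Without these 4 samples the follow-up medians were 89.7, 43.8 and 34.1 CPM over the other 8.

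**Figure D3:**
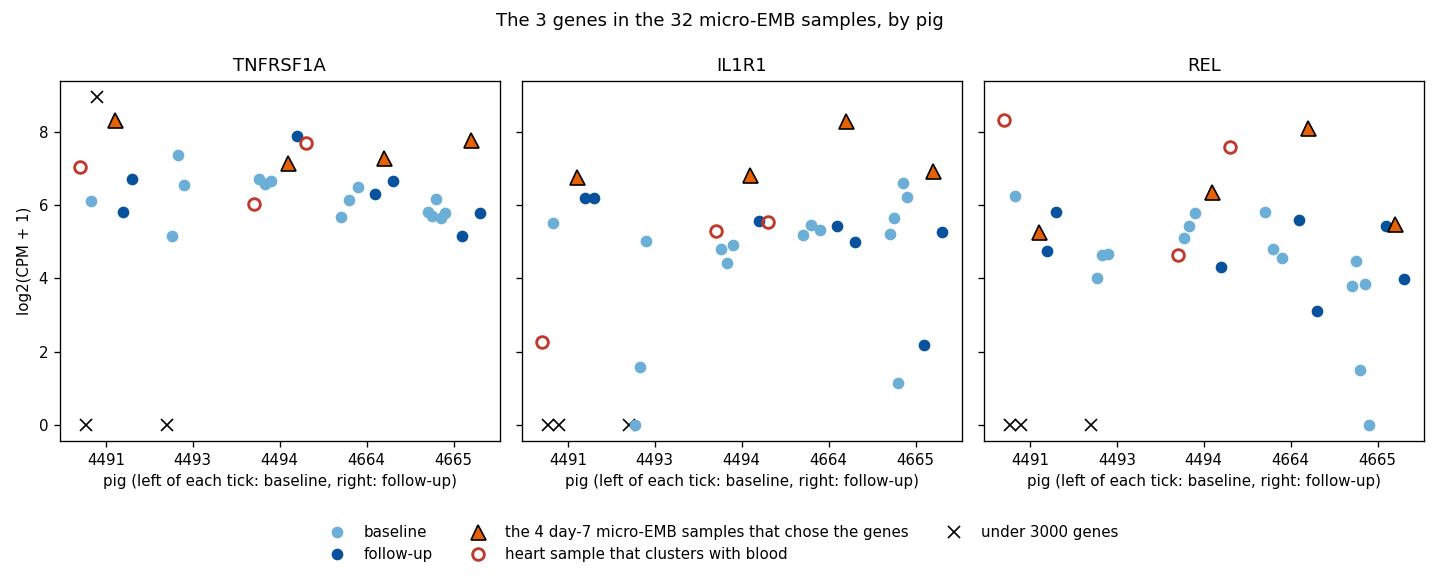
TNFRSF1A, IL1R1 and REL as log2(CPM + 1) in the 32 micro-EMB samples by pig, with 1 symbol per sample, baseline to the left and follow-up to the right of each tick. The triangles mark the 4 day 7 samples that chose the genes, with IL1R1 at 108 CPM or more in each, and crosses mark samples with fewer than 3000 genes.

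The same 4 samples stood apart from the 14 similar samples in cardiomyocyte and fibroblast markers. They and the 14 similar samples were picked by principal components of these same counts. The gap is therefore not independent of the choice of the sets, and is given as a description. Summed cardiomyocyte markers were at 677 to 13696 CPM in them and at 74348 to 184344 CPM in the 14 similar samples. Summed fibroblast markers (8 of 10 listed genes) were at 27134 to 101562 CPM against 3369 to 22610 CPM. The fibroblast level was not particular to the 4. Among the analysed micro-EMB samples in neither set, 17, 26, 34, 39 and 45 had 27685 to 60533 CPM. Samples 16, 29 and 30, also in neither set, had 10393 to 16265 CPM. Cardiomyocyte markers in the samples of neither set were at 37029 to 82108 CPM, above the 4. Summed macrophage markers (7 of 10) were at 119 to 389 CPM against 35.8 to 329 CPM, and summed leukocyte markers at 122 to 212 CPM against 36.3 to 322 CPM. Sample 36, the highest for IL1R1 and REL, had the lowest cardiomyocyte and the highest fibroblast markers of the 4. The part of these markers in the levels of the 3 genes was not tested.

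Across heart biopsies the 3 genes correlated weakly. Over all 42 heart samples Pearson's r of log2 CPM (prior count 2) was 0.43 for TNFRSF1A and IL1R1, 0.49 for TNFRSF1A and REL, and 0.51 for IL1R1 and REL, with Spearman's rho of 0.15, 0.39 and 0.27. Samples 9 and 10, with no read of the 3 genes, and sample 21, with none of IL1R1 and REL, are among the 42. Over the 33 heart samples that the study analysed, r was 0.32, 0.29 and 0.35, and without the 4 samples that chose the genes it was 0.08, 0.13 and 0.18 (n = 29). No p is given for these values, since the samples include those used to choose the genes and share pigs and depth. Within micro-EMB at follow-up, r was 0.62, 0.29 and 0.42 (n = 12), and over the 15 baseline micro-EMB samples that the study analysed it was -0.09, 0.29 and 0.13.

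In the sample types that did not enter the choice, 9 relations were tested and none passed after adjustment. Over the 10 conventional EMB samples r was -0.41 for TNFRSF1A and IL1R1 (rho -0.41, permutation p = 0.234, adjusted p = 0.351), 0.55 for TNFRSF1A and REL (rho 0.42, permutation p = 0.12, adjusted p = 0.351) and -0.31 for IL1R1 and REL (rho -0.25, permutation p = 0.386, adjusted p = 0.472). Without samples 6 and 38, the farthest from the median of TNFRSF1A, the first pair came to 0.03 and the second to -0.06. Without samples 3 and 23, the farthest in IL1R1, the third came to -0.59. The relation of TNFRSF1A and REL thus did not hold without samples 6 and 38, although with library totals in place of TMM it came to 0.45 without them. On deviations from the mean of each pig and timepoint it was 0.46. When conventional EMB samples 3, 38 and 55 were left out, r of TNFRSF1A and REL was 0.07 (n = 7, exact permutation p = 0.894). In muscle r of TNFRSF1A and REL was -0.85 (n = 6, exact permutation p = 0.0444, adjusted p = 0.338, rho -0.77), and in blood r of IL1R1 and REL was -0.77 (n = 6, exact permutation p = 0.075, adjusted p = 0.338, rho -0.70). The latter came to 0.23 without samples 14 and 51, the blood samples with no IL1R1 read. The relation in muscle depended on the scaling. It came to -0.14 with library totals in place of TMM (rho -0.03) and to -0.25 with DESeq2 size factors (rho 0.14). All tests were two-sided.

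**Figure D4:**
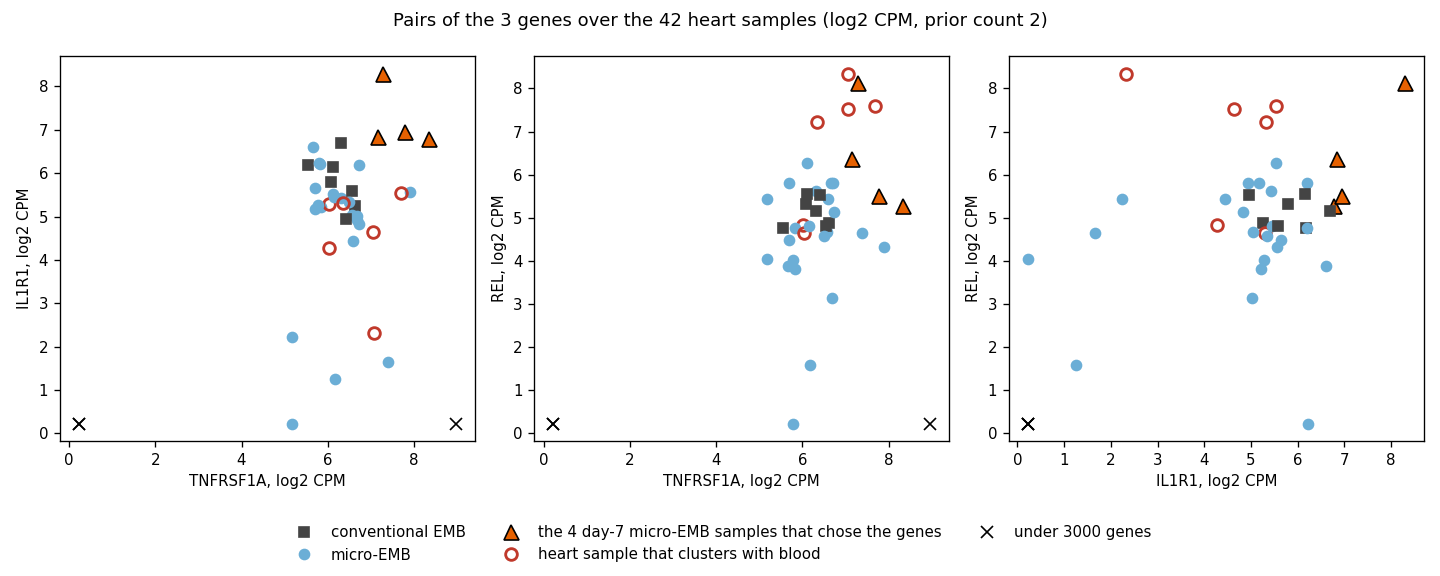
Pairs of the 3 genes as log2 CPM (prior count 2) over the 42 heart samples, 1 symbol per sample. The 4 triangles extend the IL1R1 axis above the rest, 4 of the 6 open circles (heart samples that cluster with blood) lie high for REL, and crosses mark the samples with fewer than 3000 genes.

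The levels were also set against summed markers, as a description over samples that share pigs and depth. The 4 samples that chose the genes are among them and lie apart in fibroblast and cardiomyocyte markers, so the choice of the genes bears on these values. Over the 33 heart samples that the study analysed, r with summed leukocyte markers was 0.60 for REL, 0.19 for TNFRSF1A and -0.01 for IL1R1. The rho was lower for REL, at 0.40, and was 0.24 for TNFRSF1A and 0.05 for IL1R1. Micro-EMB sample 45, at 0 CPM for both REL and the leukocyte markers, is among the 33, and r without it was not computed. With summed fibroblast markers r was 0.60 for TNFRSF1A, 0.41 for IL1R1 and 0.29 for REL. With summed cardiomyocyte markers r was -0.50 for TNFRSF1A, -0.44 for IL1R1 and -0.43 for REL. Without the 4 samples (n = 29), r with fibroblast markers was 0.44 for TNFRSF1A, 0.22 for IL1R1 and 0.05 for REL, and r with cardiomyocyte markers was -0.03, -0.05 and 0.06. REL and leukocyte markers then had an r of 0.62 and a rho of 0.35. Over all 42 heart samples r with depth (log10 counted reads) was 0.58 for TNFRSF1A, 0.44 for IL1R1 and 0.36 for REL, and over the 33 samples it was 0.15, 0.03 and 0.19.

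In the 6 heart samples that cluster with blood, REL had a median of 164 CPM, against 28.4 CPM in the 33 that the study analysed. It reached 323 CPM in micro-EMB sample 4, 193 CPM in micro-EMB sample 44, 181.96 CPM in sample 38 and 147 CPM in sample 55, whereas conventional EMB sample 3 and micro-EMB sample 19 had 27.3 and 23.8 CPM on 3 and 10 reads. IL1R1 had medians of 30.9 and 42.7 CPM in these sets and TNFRSF1A of 106 and 78.4 CPM.

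**Figure D5:**
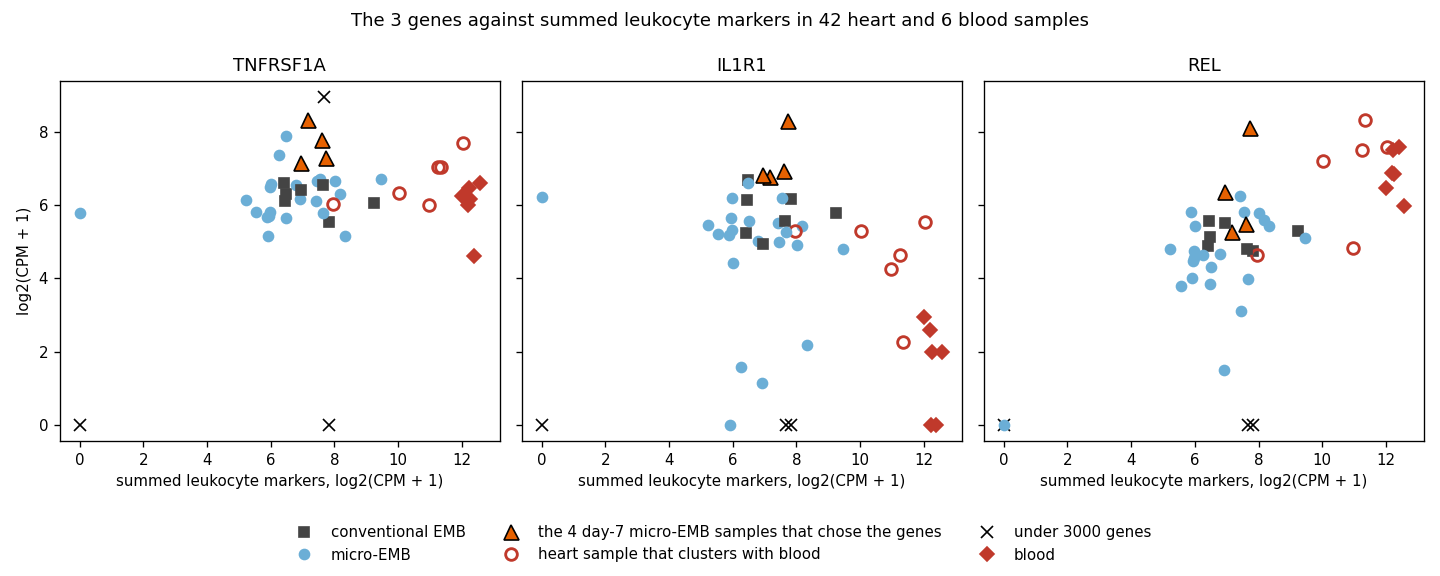
Level of the 3 genes against the summed leukocyte markers, both as log2(CPM + 1), in the 42 heart and 6 blood samples. Blood (diamonds) and 4 of the 6 heart samples that cluster with it (open circles) lie to the upper right for REL, whereas for IL1R1 blood lies at 6.68 CPM or less, as do some micro-EMB samples with few leukocyte markers.

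The genes whose levels ran most closely with each of the 3 were not the other 2, which is likely beforehand among 14641 genes. By Spearman's rho over the 30 heart samples with at least 1000000 counted reads and 14641 genes, genes near to REL were IL17RA, the interleukin-17 receptor (0.81), DEGS1, a ceramide synthesis enzyme (0.79), CEMIP2 (0.77), the unnamed ENSSSCG00000023731 (0.77) and JARID2, a chromatin regulator (0.75). Near to IL1R1 were TP53BP2 (0.76), the kinase gene ABL2 (0.76), the integrin gene ITGB1 (0.70) and ADNP (0.68). Near to TNFRSF1A were the unnamed ENSSSCG00000024812 (0.79), the small nucleolar RNA gene SNORA52 (0.78), ARHGAP32 (0.77) and SHISA5 (0.76). Over all 42 heart samples these values shifted, down to 0.58 for IL17RA and 0.49 for SNORA52 and up to 0.80 for TP53BP2 and 0.77 for JARID2. The 30 samples include samples 22, 36 and 52, which chose the genes, and samples 38 and 44, which cluster with blood. In the order of likeness to REL, TNFRSF1A ranked 683 (rho 0.42) and IL1R1 2767 (rho 0.23) of 14641 genes. In the order of likeness to TNFRSF1A, IL1R1 ranked 6880 (rho 0.06).

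By group median the order for TNFRSF1A was micro-EMB at follow-up, conventional EMB at baseline, conventional EMB at follow-up, blood, micro-EMB at baseline and muscle, and the ranges of all neighbours overlapped. For IL1R1 it was micro-EMB at follow-up, muscle, conventional EMB at baseline, conventional EMB at follow-up, micro-EMB at baseline and blood. The ranges of neighbours overlapped there too, and blood was separate from muscle and both conventional EMB groups, without a count of such separation over all genes. For REL it was blood, conventional EMB at follow-up, micro-EMB at follow-up, conventional EMB at baseline, muscle and micro-EMB at baseline, again with overlap between all neighbours.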

How the data were processed

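RNA-seq of 54 samples was made by the authors with a stranded total RNA kit for low input. Per the labels and the study's methods, reads were trimmed with Trim Galore, mapped with STAR to Sscrofa10.2 and counted per gene with featureCounts, and the authors deposited whole-number counts without normalization, from which ribosomal RNA and mitochondrial genes had been removed. Groups and pigs were taken from the labels, and symbols for 11793 of 25114 identifiers came mostly from reference tables. The study's 44 analysed samples and its sets of 4 and 14 are not named in the sources used here and were rebuilt from the counts with limits chosen for this work (over 3000 expressed genes, clustering on the 841 genes of its supplementary blood list that have a row, principal components of the 500 most variable genes). Differences were tested with edgeR 4.0.16 in R 4.3.3 (TMM, filterByExpr, quasi-likelihood, pig as covariate, Benjamini-Hochberg over all genes tested, called at an adjusted p under 0.05), with DESeq2 1.42.0 as an alternative, and correlations by permutation (100000 resamples for 10 samples, exact for 6) in scipy 1.17.1. Scripts were tested on simulated counts. The genes, lists and tests were chosen with earlier results of these data known. Named genes were the members, up to 4 genes per list by adjusted p, and the 5 nearest by rho, some of which are not reported here. The batches of RNA isolation are not in the labels and were not analysed here, so their part was not tested. Alternatives changed scaling, filter, tool, covariate and samples. The strand setting of the counting is not given in the sources used here, so reads of overlapping antisense genes cannot be told apart. Sequences are not shown.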

Additional observations from a re-analysis of the deposited data

Results flagged for a closer look

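REL stood apart in 1 conventional EMB sample at each timepoint. At baseline sample 38 had 181.96 CPM, whereas the other 5 samples had at most 38.4 CPM, and the gap to the nearest sample took up 0.92 of the group's range. At follow-up sample 55 had 147 CPM, whereas the other 3 had at most 46.1 CPM, and the gap took up 0.84 of the range. Of 12 combinations of a gene with blood, muscle or a conventional EMB group that were screened, these 2 passed Dixon's limit at the 95% level, which chance alone passes in about 1 of 20 groups. Both samples cluster with blood, with summed leukocyte markers of 2429 and 1032 CPM, and their part in the REL levels was not tested. TNFRSF1A and IL1R1 did not pass the limit in these groups, and the micro-EMB groups, with more than 10 samples each, were not screened.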

How the results depend on the processing

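Leaving aside single left-out samples, 130 differences of the 3 genes kept their direction and their side of the threshold under an alternative, 20 changed sign and 6 passed it only in the alternative. None of those that changed sign was called in either setting, and the causes of the changes were not tested. In every alternative run, IL1R1 stayed called in conventional EMB against blood (adjusted p from 1.84e-09 to 0.0268) and in blood against muscle (4.36e-09 to 0.0124), and REL in blood against muscle (2.81e-07 to 0.0329).

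TNFRSF1A in conventional EMB against blood was -0.013 with library totals and -0.17 within pig 4491. REL in the same comparison was -1.56 with library totals (adjusted p = 0.0116), -1.31 with DESeq2, -1.97 without samples that cluster with blood and -1.61 within pig 4491, and lay between -1.97 (without sample 38) and -0.94 with 1 sample left out. IL1R1 in conventional EMB against muscle was 0.23 with library totals, 0.10 with DESeq2, 0.033 without pig in the model, 0.0060 without samples under 1000000 reads, 0.083 without samples that cluster with blood and 0.46 within pig 4491, and lay between -0.20 and 0.25 with 1 sample left out. REL there was 1.35 with DESeq2, and TNFRSF1A in blood against muscle was 1.13 with library totals. At follow-up against baseline in conventional EMB, TNFRSF1A was 0.24 with library totals and 0.014 within pig 4491, and IL1R1 was 0.70 without samples under 1000000 reads and 0.089 within pig 4494. REL was -0.24 with DESeq2, -1.09 without samples under 1000000 reads, -0.061 with counts summed per pig and -1.45 within pig 4494, and lay between -0.58 (without sample 55) and 1.07 (without sample 38) with 1 sample left out. In the device comparison, TNFRSF1A was -0.13 without samples under 1000000 reads and -0.21 within pig 4494, with -0.061 to 0.68 when 1 sample was left out, and REL was -0.34, -1.36 and -0.74 to 1.22 in the same order.

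The number of genes called in conventional EMB against blood was 1916 with summed counts and 1819 within pig 4494. Against muscle it was 1859 without samples that cluster with blood, 0 with summed counts, 415 within pig 4491 and 697 to 1562 with 1 sample left out. In blood against muscle it was 2677 with summed counts. At follow-up it was 106 without a filter on low counts, 18 with DESeq2 and 2289 within pig 4491. In the device comparison it was 3 with library totals and without pig in the model, 24 without a filter, 10 with DESeq2, 5 without samples that cluster with blood, 49 over the samples that the study analysed (chosen after seeing the data), and 0 to 5 with 1 sample left out.

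The correlation of TNFRSF1A and IL1R1 was 0.20 in conventional EMB with DESeq2 size factors, and in muscle 0.12 with library totals and 0.049 with DESeq2 size factors. Library totals moved the median of all genes from 0.20, 0.04, -0.18, -0.003 and -0.47 in the 5 comparisons to -0.15, 0.37, 0.47, 0.34 and -0.08. Depth was under 1000000 counted reads in 14 samples, 12 of them heart samples.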

Other observations

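IL1A, a ligand of IL1R1, was high in some of the 6 heart samples that cluster with blood, and it is named after its values were seen. It reached 1149 CPM in micro-EMB sample 44 and 152 CPM in conventional EMB sample 55. Conventional EMB samples 3 and 38 had 45.5 CPM (on 5 reads) and 45.0 CPM. Micro-EMB sample 4 had 9.57 CPM, and micro-EMB sample 19 had no read. In blood it lay between 0 and 8.57 CPM, and in the other 36 heart samples it had a median of 0.406 CPM, at most 52.9 CPM and no read in 18. TNF, the ligand of TNFRSF1A, had a median of 17.6 CPM in the 6 heart samples, 7.07 CPM in blood and 1.31 CPM in the other 36. No test was made of these differences.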
